A study of Mus musculus with 12 samples.

Results

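The ERV3 repeats are the 21 mouse repeat features of the deposited quantification whose Repbase name ends in ERV3, out of 347 repeat features and 37713 features in all. The rule that picks them uses the name alone, though it was set with earlier results of these data known. The 21 comprise MERVL (a consensus of 5485 nt) and MERVL_LTR (493 nt), 5 consensus sequences of the ORR1 group (ORR1A0, ORR1B1, ORR1B2, ORR1C1 and ORR1C2), 12 named RLTR and 2 named RMER (RMER10A and RMER15). No feature named MT was among them, so that MT repeats are not described here. Each feature stands for every genomic copy that resembles its consensus and has no position of its own.

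Total RNA-seq compared zygotes that received Lsm1 siRNA (Lsm1_KD) with zygotes that received a scramble siRNA (Ctrl), and RIP-seq compared FLAG pull-down (IP) with Input in zygotes given 3×FLAG-tagged Lsm1 mRNA (FLAG arm) or Lsm1 mRNA without the tag (Ctrl arm). By the labels, all zygotes came from superovulated and mated B6D2F1 females of 8 to 10 weeks, collected 18 to 20 h after hCG. Both arms of the RIP-seq were incubated with anti-FLAG affinity gel, so that the Ctrl IP gives the background of the gel. There were 2 libraries in each of the 6 groups, each from pooled embryos, and nothing in the labels says that the pools came from separate females, so that p-values measure the spread between these libraries, which may be technical. The labels describe injection into zygotes, the study also injected this siRNA into germinal vesicle oocytes, and which of these the RNA-seq zygotes received was not settled here. The titles of the Ctrl arm libraries name IgG, whereas their treatment label names untagged Lsm1 mRNA.

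Endogenous retroviruses of this class carry long terminal repeats that act as promoters, and most mouse copies survive as solitary terminal repeats. MERVL is the youngest autonomous member, with gag and pol reading frames, and its terminal repeats switch on in a short burst around zygotic genome activation, when they also start chimeric transcripts of neighbouring genes. ORR1 elements belong to the non-autonomous MaLR group, which lacks the coding frames and depends on other elements for its spread, and they contribute to many transcripts of oocytes and early embryos. LSM1 forms part of a ring of LSM proteins that engages the 3′ end of messages after their poly(A) tail has been shortened, and it leads them to decapping.

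The sequence that defines the knockdown is the siRNA against Lsm1, shown because each Lsm1_KD value below rests on it. It is written 5′ to 3′ in the sense direction, with capitals for the 9 bases that lie in exon 3, the preceding 10 bases lying in exon 2.
Lsm1 siRNA: gatcaatttgCTAACTTAG
In the RefSeq transcript of Lsm1 on the plus strand of GRCm38 chromosome 8 the match is exact, at bases 187 to 205. It spans the junction of chr8:25792216-25792225, the end of exon 2, and chr8:25793677-25793685, the start of exon 3 of 4, and both segments are coding. Lsm1 itself stood at 61.7 and 69.7 CPM (the estimated count of a feature, scaled to the library total) in Lsm1_KD and at 152 and 144 CPM in Ctrl. Its log2 fold change was -1.10 (SE 0.22, adjusted p = 0.0118 by the quasi-likelihood test of edgeR with Benjamini-Hochberg adjustment, as for every adjusted p in the RNA-seq and RIP-seq unless another test is named). In the RIP-seq, Lsm1 stood at 9931 and 14731 CPM in the FLAG Input but at 16.3 and 16.1 CPM in the Ctrl Input, so that no excess of injected Lsm1 mRNA was visible in the Ctrl arm. It stood at 11125 and 121440 CPM in the FLAG IP, replicate 1 being the lower, and at 24.6 and 20.2 CPM in the Ctrl IP.

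Library totals ran from 4636492 to 13968315 estimated counts in the RNA-seq and from 9865512 to 31586450 in the RIP-seq. A count of 3 corresponded to 0.215 to 0.647 CPM in the RNA-seq and to 0.0950 to 0.304 CPM in the RIP-seq, which is the level at or under which a value is not told from 0 (counting error only). All 14 oocyte and zygote markers were above 0 in each of the 12 libraries. FLAG IP replicate 1 stood apart: its TMM factor (the scaling that edgeR puts on a library total) was 1.86 against 0.873 to 1.02 in the other RIP-seq libraries, and repeats took 12.7% of its counts against 2.63% in FLAG IP replicate 2.

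The ERV3 repeats were a minute share of the zygote RNA and a larger share of what the gel retained. Their share of all counts was 0.0108% and 0.0170% for Lsm1_KD, and 0.00672% and 0.00473% for Ctrl. In the RIP-seq they took 0.0528% and 0.0285% of the Ctrl Input, 0.953% and 0.448% of the Ctrl IP, 0.0480% and 0.142% of the FLAG Input, and 3.61% and 1.24% of the FLAG IP. Both IP groups lay above both inputs without overlap, and the inputs lay above the RNA-seq. The replicates differed most in the FLAG Input and in the FLAG IP.

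MERVL made up most of this share in the RIP-seq and little of it in the RNA-seq. Of the ERV3 counts, MERVL held 17.6% and 15.9% in Lsm1_KD and 12.2% and 10.9% in Ctrl. It held 87.9% and 82.2% in the Ctrl Input, 97.5% and 96.7% in the Ctrl IP, 81.8% and 95.1% in the FLAG Input, and 91.7% and 97.6% in the FLAG IP. In TPM, a value per length that allows features to be compared, ORR1B1 had the highest mean of the 21 in Lsm1_KD, Ctrl and the Ctrl Input, and MERVL in the FLAG Input and in both IP groups. In the FLAG Input this rested on replicate 2, since in replicate 1 ORR1B1 at 234 TPM and ORR1A0 at 137 TPM exceeded MERVL at 96.7 TPM. MERVL ranked the seventh in Lsm1_KD and the ninth in Ctrl, while ORR1A0 ranked the second or the third in all 6 groups.

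Per library, MERVL stood at 19.0 and 27.0 CPM in Lsm1_KD, 8.23 and 5.14 in Ctrl, 465 and 235 in Ctrl Input, 9285 and 4326 in Ctrl IP, 393 and 1351 in the FLAG Input, and 33085 and 12073 in the FLAG IP. MERVL_LTR, listed under its own consensus, drew fewer counts, with 0 and 0.69 CPM in Lsm1_KD, 0.32 and 0.40 in Ctrl, 0.85 and 0.34 in the Ctrl Input, 7.39 and 5.80 in the Ctrl IP, 0.97 and 2.30 in the FLAG Input, and 62.4 and 14.6 in the FLAG IP. The pair moved alike across the RIP-seq groups, both being higher in FLAG Input replicate 2 than in replicate 1. In the RNA-seq, MERVL_LTR was at or near the level of 3 counts in all 4 libraries, and no direction can be read from it there. Per length, the TPM of MERVL over that of MERVL_LTR was 22.3 to 71.1 in the 8 RIP-seq libraries but 1.49 and 0.77 in Ctrl and 2.25 in Lsm1_KD replicate 2, so that MERVL_LTR exceeded MERVL in Ctrl replicate 2.

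ORR1B1, a MaLR terminal repeat, stood at 55.2 and 96.7 CPM in Lsm1_KD, 31.7 and 20.8 in Ctrl, 27.9 and 22.0 in the Ctrl Input, 57.4 and 38.6 in the Ctrl IP, 35.8 and 26.0 in the FLAG Input, and 778 and 71.8 in the FLAG IP. Its relative ORR1A0 stood at 13.0 and 17.2 CPM in Lsm1_KD, 12.8 and 12.0 in Ctrl, 13.6 and 8.91 in the Ctrl Input, 82.2 and 51.9 in the Ctrl IP, 16.7 and 16.1 in the FLAG Input, and 925 and 99.8 in the FLAG IP. Thus ORR1A0 lay in a narrow band in the 8 libraries without pull-down, whereas ORR1B1 was higher in both Lsm1_KD libraries than in any of the other 6.

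Reads from similar copies can be divided among features by the quantification. Of the 208 member values above 0, 137 differed from a whole number by more than 1e-06. ORR1A0, ORR1B1, ORR1B2 and RLTR51A_Mm were not whole in any of the 12 libraries, MERVL was not in 6, and RLTR33_MM in 0 of its 11 values above 0.

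**Figure D1:**
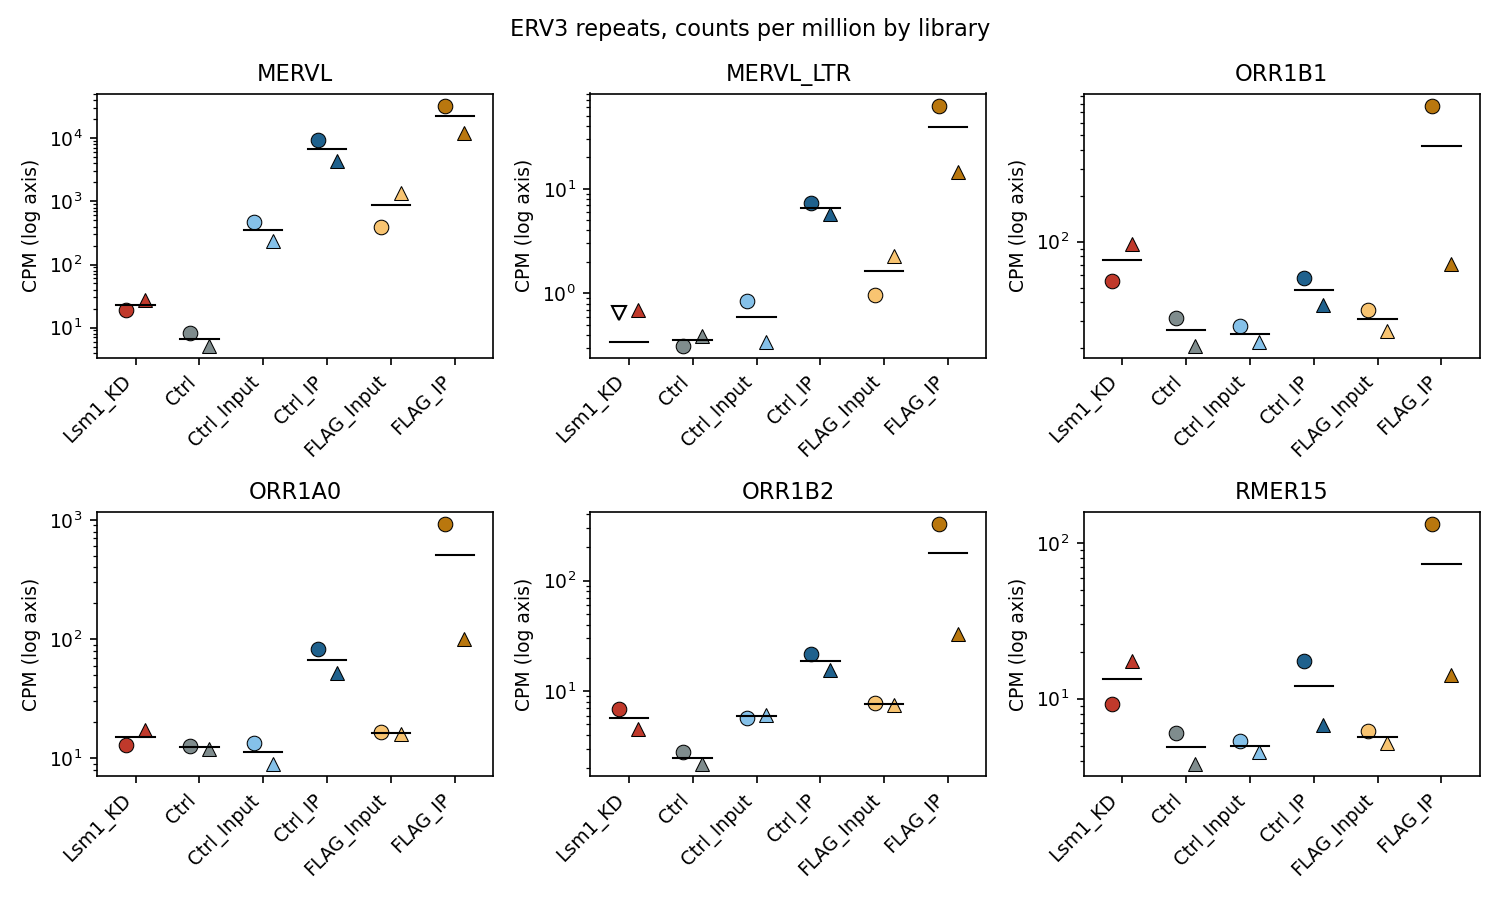
CPM (log axis) of MERVL, MERVL_LTR, ORR1B1, ORR1A0, ORR1B2 and RMER15 in each of the 12 libraries, by group. Circles are replicate 1, triangles are replicate 2, bars are the group mean of 2 libraries, and the open triangle marks the value of 3 counts in the library where MERVL_LTR was at 0. MERVL spans 5.14 to 33085 CPM, and FLAG IP replicate 1 lies above replicate 2 in all 6 panels.

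Knockdown of Lsm1 tests whether ERV3 RNA rises when a decay factor is reduced. MERVL and ORR1B1 were higher in Lsm1_KD zygotes, 3.61-fold and 3.06-fold, and the other 4 members that could be tested were also on the higher side without passing the test. Of the 21 members, 6 passed the filter on low counts, 2 were called higher and 0 lower, a call being a log2 fold change past 1 with an adjusted p under 0.05. Over all 11335 features tested, 5.4% were called higher and 2.75% lower. No member was lower at an unadjusted p under 0.05 either, beside 4 of 115 tested repeats and 1463 of the 11335 features. By DESeq2 or limma 0 members were called lower. Whether fewer cells or less RNA per cell lay behind a difference cannot be told apart in pooled embryos.

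For MERVL the log2 fold change was 1.85 (SE 0.42, adjusted p = 0.0223), and for ORR1B1 it was 1.61 (SE 0.33, adjusted p = 0.0138). Both Lsm1_KD libraries lay above both Ctrl libraries for either repeat. Without Lsm1_KD replicate 2, MERVL was at 1.57 (adjusted p = 0.125) and ORR1B1 at 1.15 (adjusted p = 0.0862), and 0 members were called. Without Ctrl replicate 2, MERVL was at 1.59 (adjusted p = 0.0589), which left ORR1B1 as the 1 member called. Over all 12 alternatives the adjusted p of MERVL ran from 0.000564 to 0.172 and that of ORR1B1 from 3.8e-06 to 0.163, with the fold above 0 in each.

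RMER15, named among the medium reiterated repeats, stood at 9.27 and 17.4 CPM in Lsm1_KD and at 6.02 and 3.79 in Ctrl, a log2 fold change of 1.52 (SE 0.52) that did not pass the test (adjusted p = 0.0881). ORR1B2 stood at 6.89 and 4.53 CPM in Lsm1_KD and at 2.82 and 2.17 in Ctrl, at 1.26 (SE 0.72, adjusted p = 0.293). In both, the groups did not overlap in CPM, although the folds were smaller relative to their errors than those of MERVL and ORR1B1. ORR1A0 was at 0.36 (SE 0.40, adjusted p = 0.612) and ORR1C2, with 1.53 and 1.44 CPM in Lsm1_KD and 1.72 and 0.81 in Ctrl, at 0.28 (SE 1.07, adjusted p = 0.899).

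The remaining 15 members were too low in the RNA-seq to be tested, with values from 0 to 2.05 CPM. Among them RLTR19A2, RLTR19B_MM, RLTR19C_MM and RLTR53B_Mm were at 0 in all 4 libraries. Their absence at this depth allows up to 0.215 to 0.647 CPM in a library. Of those called in the RIP-seq, ORR1C1 stood at 0 and 0.84 CPM in Lsm1_KD and at 0.47 and 0.75 in Ctrl. RLTR33_MM stood at 1.29 and 0.63 CPM in Lsm1_KD and at 1.002 and 0 in Ctrl. In both repeats the groups overlapped. RLTR35_MM stood at 0.86 and 1.53 CPM in Lsm1_KD and at 0.36 and 0.41 in Ctrl. RLTR19A_MM was at 0 in both Lsm1_KD libraries and at 0.14 and 0.54 CPM in Ctrl. RMER10A was at 0.22 and 0.09 CPM in Lsm1_KD and at 0.36 and 0 in Ctrl. Only RMER10A overlapped between the groups among these 3, and none of them could be tested.

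Over the 6 tested ERV3 repeats the median log2 fold change was 1.39, beside 0.58 over 115 tested repeats and 0.01 over all features tested. All 6 lay above 0, beside 75 of the 115 repeats and 50.3% of all features. Among the related classes, ERV1 had 0 of 17 and ERV2 3 of 67 tested members called higher, with medians of 0.32 and 0.58. L1, a LINE family, had 0 of 17 called higher with a median of 0.75. No difference between classes was tested.

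**Figure D2:**
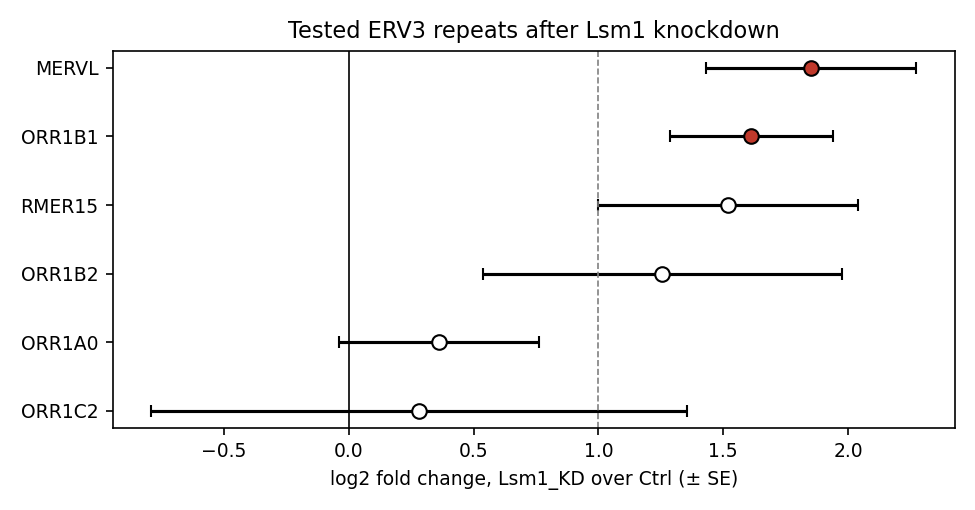
Log2 fold change of Lsm1_KD over Ctrl (x axis) for the 6 ERV3 repeats that passed the filter on low counts (y axis), 2 libraries per group. Bars are the standard error of the edgeR fit, filled points were called higher, and the dashed line marks a log2 fold change of 1. All 6 points lie above 0, from 0.28 for ORR1C2 to 1.85 for MERVL.

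ORR1B1 and ORR1A0 have consensus sequences of similar length (394 and 346 nt), and their TPM were compared within each library, as a description. The ratio of ORR1B1 to ORR1A0 was 3.39 and 4.45 in Lsm1_KD and 1.98 and 1.41 in Ctrl. In the inputs it was 1.64 and 1.95 for the Ctrl arm and 1.71 and 1.29 for the FLAG arm. In the IP libraries it was 0.55 and 0.59 for the Ctrl arm and 0.67 and 0.57 for the FLAG arm. The ratio was thus highest in both Lsm1_KD libraries and under 1 in all 4 IP libraries, in either arm. With 2 libraries against 2, an exact permutation test cannot reach 0.05, and no p is given.

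**Figure D3:**
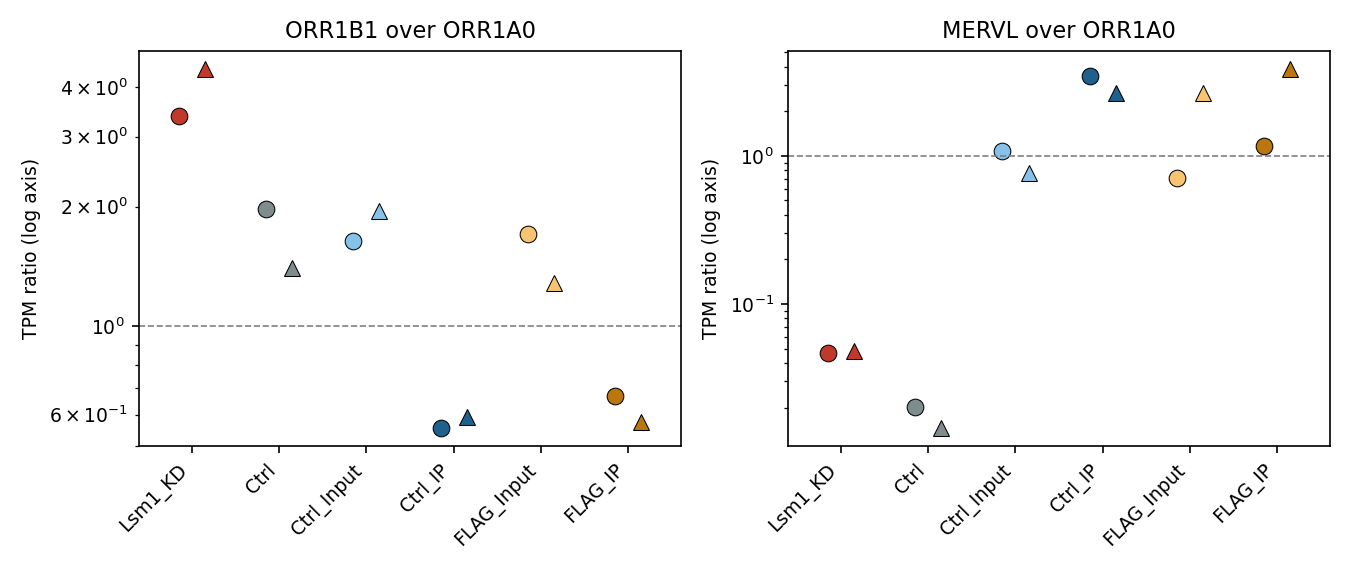
Ratio of TPM within each library (log axes) of ORR1B1 to ORR1A0 (left) and of MERVL to ORR1A0 (right), by group. Circles are replicate 1 and triangles replicate 2, and the dashed line marks a ratio of 1. ORR1B1 exceeds ORR1A0 in the 8 libraries without pull-down and falls below it in the 4 IP libraries, while MERVL is at most 0.05 of ORR1A0 in the RNA-seq.

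Pull-down with LSM1-FLAG asks which RNAs are retained with the tagged protein. All 20 ERV3 repeats that could be tested lay above 0 in FLAG IP over FLAG Input, beside 322 of 324 tested repeats and 57.7% of all features. Of the 20, 14 were called higher, from 2.79 for RMER15 to 5.00 for RLTR19B_MM on the log2 scale. RLTR19A2 (2.94 and 0.79 CPM in the FLAG IP) and RLTR51B_Mm (6.40 and 0.54) were at most at 0.27 CPM in any input. They passed the filter on low counts only through the FLAG IP, so that their place above 0 was fixed by it. RLTR19D, also at most at 0.27 CPM in any input, passed only through FLAG IP replicate 1 (1.32 CPM) and Ctrl IP replicate 2 (0.47 CPM). Its place above 0 thus leaned on the filter as well. None of these repeats was called. Over all 18972 features tested, 20.9% were called higher and 5.11% lower, and 0 ERV3 repeats were lower, with edgeR at an unadjusted p under 0.05, DESeq2 and limma all giving 0 too. By edgeR at that unadjusted level, 0 of 324 tested repeats and 2668 of all features were lower. The median of the 20 was 3.66 and that of all features 0.49, which moves to 1.16 when library totals replace the TMM factors. The same held for repeats in general, with 268 of 324 called higher and a median of 4.07. ERV1 had 47 of 59, ERV2 149 of 183 and L1 44 of 45 called higher.

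MERVL was 16.1-fold higher in the FLAG IP than in the FLAG Input (log2 4.01, SE 1.37, adjusted p = 0.0493), a call close to the threshold. With each lysate as a block its log2 fold change was 4.27 and the call was lost (adjusted p = 0.105), and without FLAG Input replicate 1 or 2 it was 3.37 (adjusted p = 0.393) or 5.18 (adjusted p = 0.266). Over all 12 alternatives its adjusted p ran from 1.6e-09 to 0.489. MERVL_LTR was 13.7-fold higher (log2 3.78, SE 0.62, adjusted p = 0.00406), with a smaller error.

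Among the MaLR repeats, ORR1A0 was 16.8-fold higher (log2 4.07, SE 0.65, adjusted p = 0.00379) and ORR1B1 7.31-fold (log2 2.87, SE 0.63, adjusted p = 0.0119). The call of ORR1B1 was lost without FLAG Input replicate 1 (adjusted p = 0.0713) or 2 (adjusted p = 0.0828), and without FLAG IP replicate 1 its log2 fold change was 1.23 with the call kept, the adjusted p running from 2.7e-07 to 0.101 over all 12 alternatives. ORR1B2 stood at 7.79 and 7.41 CPM in the FLAG Input and at 325 and 32.6 in the FLAG IP (log2 3.65, SE 0.58). ORR1C1 stood at 2.50 and 1.59 CPM in the FLAG Input and at 106 and 7.51 in the FLAG IP (log2 3.85, SE 0.75). All 5 ORR1 repeats were called higher, and in each of them replicate 1 of the FLAG IP was 9.27 to 15.3 times replicate 2. ORR1C2 stood at 2.59 and 1.01 CPM in the FLAG Input and at 137 and 8.95 in the FLAG IP (log2 4.41, SE 0.82).

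The RLTR and RMER repeats were called less evenly. RLTR19B_MM stood at 0.26 and 0.49 CPM in the FLAG Input and at 44.3 and 3.75 in the FLAG IP (log2 5.00, SE 0.95). RLTR33_MM stood at 2.84 and 2.04 CPM in the FLAG Input and at 178 and 11.7 in the FLAG IP (log2 4.33, SE 0.77). These 2 repeats had no overlap between Input and IP, and each lost its call in 2 of 12 alternatives.

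RLTR35_MM stood at 4.32 and 1.50 CPM in the FLAG Input and at 129.9 and 10.1 in the FLAG IP (log2 3.67, SE 0.76). RLTR19A_MM stood at 0.48 and 0.98 CPM in the FLAG Input and at 31.5 and 2.75 in the FLAG IP (log2 3.64, SE 1.02). RLTR19C_MM stood at 0.35 and 0.54 CPM in the FLAG Input and at 26.3 and 3.07 in the FLAG IP (log2 4.14, SE 1.07). In all 3 the lower IP library was still above the higher Input. Of 12 alternatives, the call was lost in 5 for RLTR19A_MM, 4 for RLTR19C_MM and 3 for RLTR35_MM. Without FLAG IP replicate 1, RLTR19A_MM was at 1.94 and RLTR19C_MM at 2.77 on the log2 scale. With a library left out RLTR35_MM ran from 1.82 to 4.59.

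RMER10A stood at 1.15 and 1.04 CPM in the FLAG Input and at 38.1 and 3.35 in the FLAG IP (log2 3.31, SE 0.81). RMER15 stood at 6.19 and 5.22 CPM in the FLAG Input and at 133 and 14.1 in the FLAG IP (log2 2.79, SE 0.62). Both calls were lost without FLAG Input replicate 1 or 2, or without FLAG IP replicate 1, where RMER10A was at 1.61 (adjusted p = 0.107) and RMER15 at 1.31 (adjusted p = 0.0590). Over all 12 alternatives the adjusted p ran from 3.3e-05 to 0.126 for RMER10A and from 2.4e-08 to 0.106 for RMER15. The 6 tested repeats that were not called were RLTR19A2, RLTR19D, RLTR35B_MM, RLTR51A_Mm, RLTR51B_Mm and RLTR53_Mm, at 1.54 to 4.21 with errors of 0.77 to 1.75. RLTR53B_Mm had at most 6 counts in any library of the series and was not tested.

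FLAG IP replicate 1 held more ERV3 RNA than replicate 2. Lsm1 RNA itself went the other way, at 11125 CPM in replicate 1 and 121440 CPM in replicate 2, and its link to the ERV3 values was not tested. In each of the 20 members above 3 counts in both libraries, replicate 1 was 2.74 to 16.0 times replicate 2, with a median of 11.1. The ratio was lowest for MERVL. In the same library cumulus and granulosa markers summed to 124 CPM, with all 10 above 0, against 13.9 to 27.4 CPM in the other 7 RIP-seq libraries, where 6 to 9 were above 0. Blood markers summed to 13.9 CPM there and to 0.801 to 4.92 CPM in the other RIP-seq libraries, and sperm markers to 20.5 CPM and 6.92 to 16.9 CPM. Vcan at 50.9 and Kctd14 at 33.3 CPM made up most of the 124 CPM. Cyp19a1 alone of the first list was lower in FLAG IP replicate 1 than in FLAG Input replicate 1 (13.0 against 19.7 CPM). Of the sperm list this held for Prm2 alone (5.17 against 6.31 CPM). Whether such cells were present, and their part in the ERV3 values, was not tested. Leaving out FLAG IP replicate 1 lowered the number of ERV3 repeats called higher, and leaving out replicate 2 raised it. The median log2 fold change over all features was 0.10 and 1.09 in these fits, and the share of all features called was not worked out.

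The Ctrl arm gives the retention on the gel with no tagged protein present. The enrichment of MERVL was of similar size there and in the FLAG arm, with a log2 fold change of 4.11 in Ctrl IP over Ctrl Input, but it did not pass the test there (SE 1.38, adjusted p = 0.147). It was called at 4.06 by DESeq2 (adjusted p = 1.1e-09) and at 4.15 with the 4 libraries of that arm only (SE 0.43, adjusted p = 0.00098), and the adjusted p ran up to 0.959 over all 12 alternatives. MERVL_LTR was called higher (log2 3.26, SE 0.63, adjusted p = 0.0219), the 1 member of 20 tested, and 0 were called lower. The background over all features was 2.12% higher and 0.00527% lower. Before adjustment 11 members were higher and 0 lower at p under 0.05. Beside this, 181 of 324 tested repeats were higher and 0 lower, and 3085 of 18972 features higher and 139 lower. DESeq2 called 6 members higher and 0 lower, limma 0 in either direction.

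Of the ORR1 repeats, ORR1A0 was at 2.41 (SE 0.60, adjusted p = 0.0657) and ORR1B1 at 0.78 (SE 0.59, adjusted p = 0.595) in the Ctrl arm. ORR1B2 stood at 5.71 and 6.09 CPM in the Ctrl Input and at 21.5 and 15.6 in the Ctrl IP, at 1.49 (SE 0.55, adjusted p = 0.186). ORR1C1 stood at 1.78 and 1.92 CPM in the Ctrl Input and at 9.74 and 4.89 in the Ctrl IP, at 1.81 (SE 0.70, adjusted p = 0.211). Both Ctrl IP libraries were above both inputs for every ORR1 repeat. ORR1C2 stood at 0.94 and 0.58 CPM in the Ctrl Input and at 6.81 and 3.65 in the Ctrl IP, at 2.58 (SE 0.81, adjusted p = 0.123).

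RLTR33_MM stood at 1.96 and 1.84 CPM in the Ctrl Input and at 13.0 and 5.54 in the Ctrl IP (log2 2.10, SE 0.72). RLTR35_MM stood at 1.20 and 1.48 CPM in the Ctrl Input and at 13.4 and 6.57 in the Ctrl IP (log2 2.72, SE 0.76). RMER15 stood at 5.31 and 4.55 CPM in the Ctrl Input and at 17.5 and 6.76 in the Ctrl IP (log2 1.11, SE 0.60). None of these 3 passed the test in the Ctrl arm, although the IP libraries did not overlap the inputs.

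RLTR19A_MM stood at 0.05 and 0.25 CPM in the Ctrl Input and at 2.34 and 1.12 in the Ctrl IP. RLTR19B_MM stood at 0.46 and 0.18 CPM in the Ctrl Input and at 2.13 and 1.07 in the Ctrl IP. RLTR19C_MM stood at 0.14 and 0 CPM in the Ctrl Input and at 0.44 and 0.55 in the Ctrl IP. The 3 RLTR19 repeats thus rested on few reads in this arm. RMER10A stood at 0.46 and 0.50 CPM in the Ctrl Input and at 1.05 and 1.26 in the Ctrl IP, and none of these 4 passed the test. RLTR19A2 was at 0 in all 4 Ctrl arm libraries.

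With each lysate as a block, 8 members were called higher in the Ctrl arm in place of 1, the share of all features not being worked out there. They were MERVL_LTR, ORR1A0, ORR1B2, ORR1C1, ORR1C2, RLTR19A_MM, RLTR33_MM and RLTR35_MM. Without Ctrl Input replicate 2 or without Ctrl IP replicate 1 the count was 0, with MERVL_LTR at 2.80 (adjusted p = 0.191) and 3.14 (adjusted p = 0.0847). Its adjusted p ran from 1.3e-06 to 0.275 over all 12 alternatives. The median of the 20 members was 1.95 and that of all features 0.12, and repeats as a whole had 52 of 324 called higher with a median of 2.12.

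**Figure D4:**
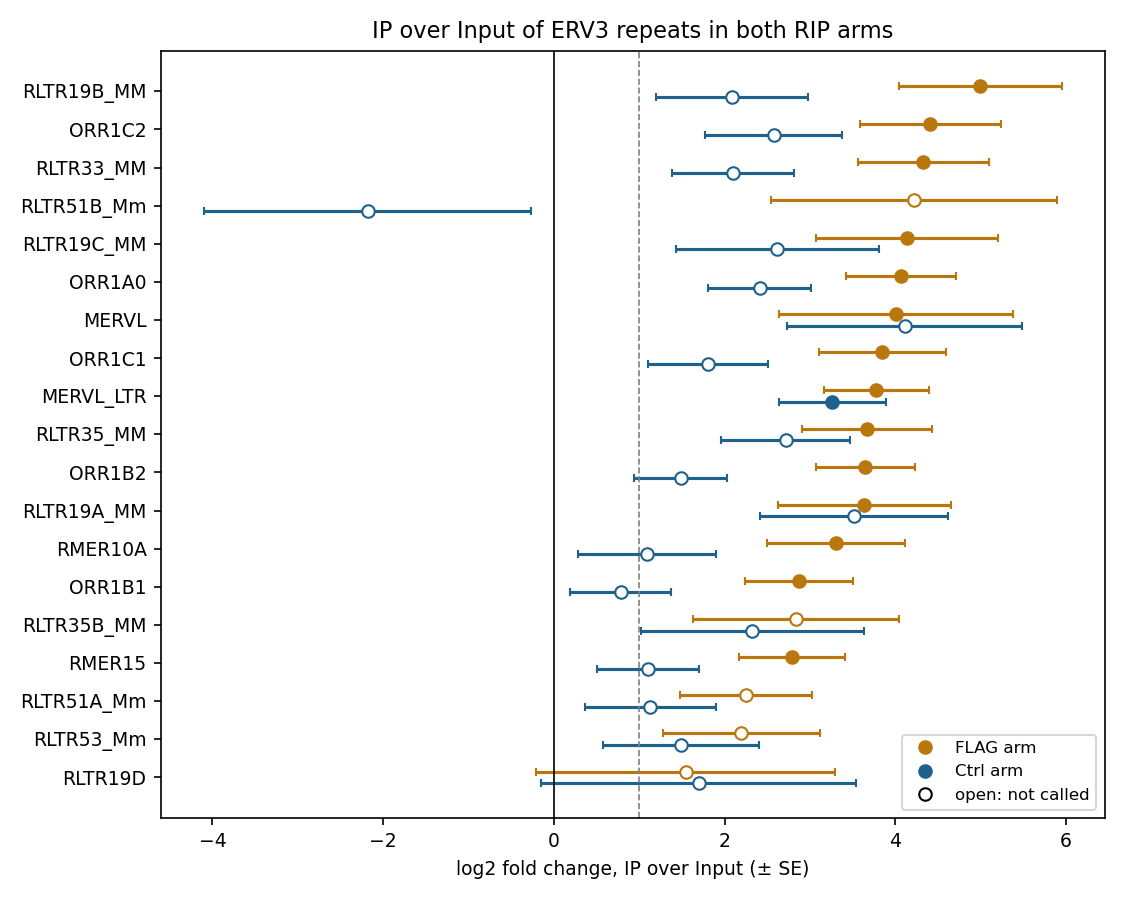
Log2 fold change of IP over Input (x axis) in the FLAG arm and in the Ctrl arm for 19 of the 20 tested ERV3 repeats (y axis, ordered by the FLAG arm), with the standard error of the edgeR fit. RLTR19A2 is left out, being at 0 in the Ctrl arm. Filled points were called higher, 14 in the FLAG arm and 1 in the Ctrl arm, and MERVL sits at 4.01 and 4.11 in the 2 arms.

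The direct question, whether the tagged protein retained more than the gel alone, is the ratio of IP to Input in the FLAG arm over that in the Ctrl arm. No ERV3 repeat passed this test, with 0 called higher and 0 lower, as for all 18972 features (0%). At an unadjusted p under 0.05, 5 members were higher and 0 lower, 1 of the 5 being RLTR51B_Mm, which passed the filter only through the FLAG IP. Beside this, 78 of 324 tested repeats were higher and 0 lower, and 756 of all features higher and 239 lower. DESeq2 and limma called 0 members. MERVL was at -0.10 (SE 1.72, adjusted p = 0.998) and MERVL_LTR at 0.51 (SE 0.83, adjusted p = 0.858). The sign of MERVL turned under several alternatives, with library totals in place of TMM factors among them.

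The ORR1 repeats lay higher on this scale, with ORR1B2 at 2.16 (SE 0.76), ORR1B1 at 2.09 (SE 0.84), ORR1C1 at 2.04 (SE 0.97), ORR1C2 at 1.84 (SE 1.08) and ORR1A0 at 1.66 (SE 0.82), all with an adjusted p of 0.79. The median of the 20 tested members was 1.67, close to the 1.61 of all 324 tested repeats, and all features had 0.02. Medians were 1.75 for ERV1, 1.74 for ERV2 and 1.02 for L1. FLAG IP set directly against Ctrl IP gave no member an adjusted p under 0.05, the lowest being 0.126.

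The folds depended on which FLAG IP library was kept. Without replicate 2, ORR1A0 was at 2.36, ORR1B1 at 2.82 and ORR1B2 at 2.87, while MERVL was at 0.07 and MERVL_LTR at 0.94. The median over all features was 0.33 there. Without replicate 1, ORR1A0 was at 0.25, ORR1B1 at 0.50, ORR1B2 at 0.67 and MERVL at -0.28, with a median over all features of -0.11. Calls rested on 1 FLAG IP library in these fits, and the share of all features called was not worked out. In either case the remaining IP library was assumed to vary like the other groups.

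Within each lysate, the CPM in the IP over the CPM in the Input shows the same split. Input and IP were paired here by replicate number, which is an assumption. In FLAG lysate 1, MERVL was 84.3 times higher in the IP, in FLAG lysate 2 8.93 times, and in the Ctrl lysates 20.0 and 18.4 times. ORR1A0 was 55.3 and 6.20 times higher in the FLAG lysates and 6.06 and 5.83 times in the Ctrl lysates. ORR1B1 was 21.7 and 2.77 times higher in the FLAG lysates and 2.06 and 1.76 times in the Ctrl lysates. MERVL in FLAG lysate 2 thus fell below both Ctrl lysates, while ORR1A0 and ORR1B1 stayed at or just above them. The place of MERVL depends on the assumed pairing, since its FLAG Input libraries differed widely (393 and 1351 CPM).

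Of the 14 members with more than 3 counts in all 8 RIP-seq libraries, all 14 were above 1 in each of the 4 lysates. FLAG lysate 1 lay above both Ctrl lysates for 14 of 14. FLAG lysate 2 lay above both for 6 (ORR1A0, ORR1B1, ORR1B2, ORR1C2, RLTR19B_MM and RMER10A), below both for 3 (MERVL, MERVL_LTR and RLTR53_Mm), and between them for the remainder. The median ratio was 42.1 and 5.22 in the FLAG lysates and 5.07 and 3.23 in the Ctrl lysates. These ratios use plain CPM, and repeats as a whole took 12.7% of FLAG IP replicate 1 against 1.08% to 2.63% of the other IP libraries. How many of all features or of all repeats lay likewise was not worked out.

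**Figure D5:**
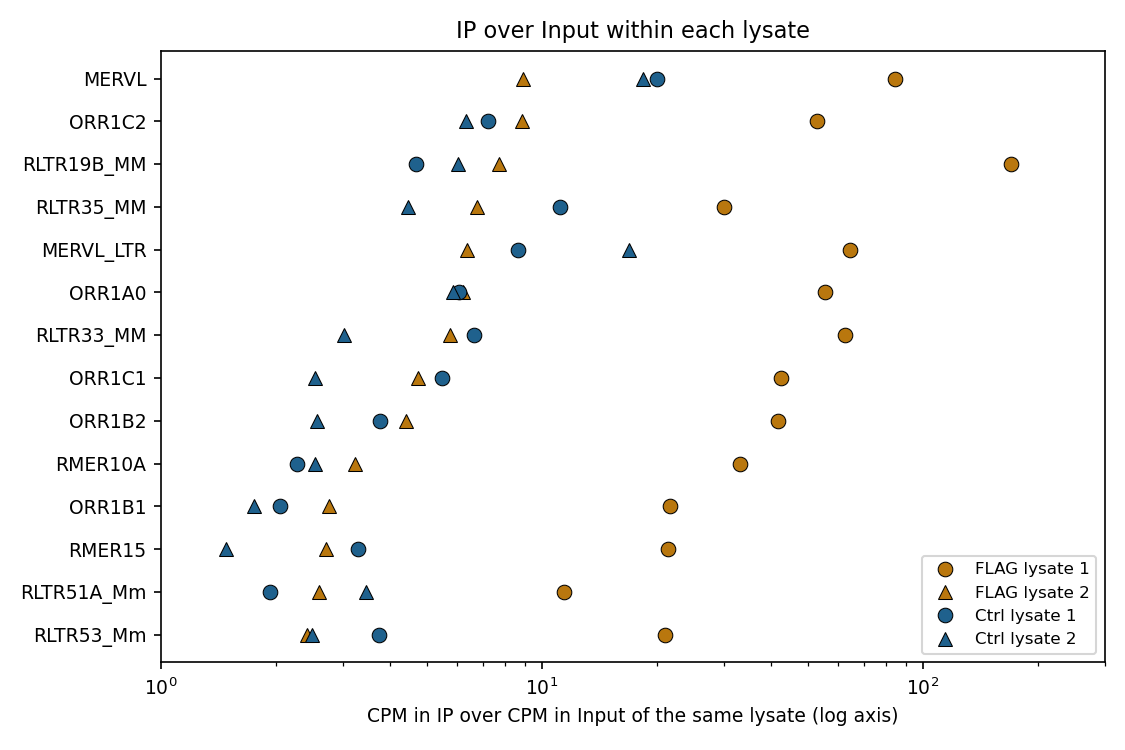
CPM in the IP over CPM in the Input of the same replicate number, taken as the same lysate (log x axis). The y axis holds the 14 ERV3 repeats with more than 3 counts in all 8 RIP-seq libraries. No error is drawn, since each point is 1 pair of libraries. FLAG lysate 1 spans 11.4 to 170 and lies to the right of the other 3 lysates for each repeat, while FLAG lysate 2 spans 2.42 to 8.93, within or near the range of the Ctrl lysates.

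Before the pull-down, no ERV3 repeat passed the test between the FLAG Input and the Ctrl Input, although most lay above 0. There were no calls (0 higher and 0 lower of 20 tested, 0% over all features in either direction), and neither DESeq2 nor limma called a member (0). An unadjusted p under 0.05 gave 3 members higher and 0 lower, beside 21 of 324 tested repeats higher and 0 lower. Of 18972 features, 167 were higher and 9 lower at that level. MERVL was at 1.32 (SE 1.23) and MERVL_LTR at 1.41 (SE 0.61). Above 0 were 19 of the 20 members, beside 273 of 324 tested repeats and 52.5% of all features. The median of the members was 0.83, beside 0.67 for all repeats and 0.02 for all features. MERVL varied more between the replicates of the FLAG Input (393 and 1351 CPM) than ORR1A0 (16.7 and 16.1 CPM).

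The RNA-seq of Ctrl zygotes was set against the Ctrl Input, which are both libraries without pull-down. MERVL was the 1 ERV3 repeat called, lower by 5.32 on the log2 scale in the RNA-seq (8.23 and 5.14 CPM against 465 and 235; SE 0.61, adjusted p = 6.1e-05), and it was called in each of the 12 alternatives, at -4.46 to -5.74. Of the 14 tested members 0 were called higher and 1 lower, beside 16% and 20% of the 14629 features tested. ORR1A0 at 0.49 (SE 0.32), ORR1B1 at 0.42 (SE 0.30) and MERVL_LTR at -0.49 (SE 1.11) did not pass the test. Relative to ORR1A0, the TPM of MERVL was 0.02 and 0.01 in Ctrl, 0.05 and 0.05 in Lsm1_KD, 1.07 and 0.76 for Ctrl Input libraries, and 0.70 and 2.64 for FLAG Input libraries.

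The median of the 14 members was -0.88, beside -0.15 for all features, which moves to -0.50 with library totals. L1 had 30 of 40 tested members called lower with a median of -3.29, ERV1 4 of 33 lower and 3 higher, and ERV2 9 of 131 lower and 11 higher. The library kit, the injected RNA and the number of embryos per library differ between these groups along with the experiment, and their effects cannot be told apart.

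Genes linked to MERVL were taken from a list of 35 2-cell genes, many of them with MERVL-driven transcripts, of which 34 were matched. In Lsm1_KD over Ctrl, 9 could be tested, 0 were called higher and 1 lower, and the median was 0.31. The lower gene was Tcstv1, a 2-cell gene, at 15.5 and 10.1 CPM in Lsm1_KD and at 58.3 and 42.1 CPM in Ctrl (log2 -1.92, SE 0.34, adjusted p = 0.00777), opposite in sign to MERVL. Zfp352 and Usp17la, chosen after their values were seen, did not pass the test, at 1.07 (SE 0.93, adjusted p = 0.502) and 1.39 (SE 0.90, adjusted p = 0.356).

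In the RIP-seq, 13 of 33 tested 2-cell genes were called higher in the FLAG arm and 8 of 33 in the Ctrl arm, beside 20.9% and 2.12% of all features. In both arms 0 were called lower, beside 5.11% and 0.00527% of all features. Zfp352, a zinc-finger gene of the 2-cell stage, stood at 4.21 and 3.83 CPM in the Ctrl Input, 72.7 and 43.0 in the Ctrl IP, 3.19 and 5.73 in the FLAG Input, and 63.4 and 55.6 in the FLAG IP. Usp17la, a deubiquitinase gene, stood at 5.04 and 4.37 CPM in the Ctrl Input, 47.5 and 24.7 in the Ctrl IP, 4.63 and 7.84 in the FLAG Input, and 123 and 41.2 in the FLAG IP. The IP libraries of both arms lay above all inputs for either gene, both chosen after their values were seen. In the FLAG arm 30 of the 33 lay above 0, beside 57.7% of all features. Tdpoz1 (1.50 and 0.57 CPM in the FLAG IP) and Tdpoz2 (5.98 and 1.93) were at most at 0.27 CPM in any input. They passed the filter on low counts only through the FLAG IP, so that their place above 0 was fixed by it. How far this held for other genes of the list was not worked out. Zfp750 went the other way in the FLAG arm, at 404 and 370 CPM in the Input and 194 and 292 in the IP. So did Arg2, at 140 and 130 CPM in the Input and 89.7 and 99.1 in the IP. In the Ctrl arm the log2 fold change was 3.68 for Zfp352 (SE 0.45, adjusted p = 0.00168) and 2.77 for Usp17la (SE 0.41, adjusted p = 0.00547). The ratio of arms was called for 0 of 33, with a median of -0.48, and Usp17 genes share near-identical copies, so that their separate values are uncertain.

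Between the Ctrl RNA-seq and the Ctrl Input, 8 of 23 tested 2-cell genes were called lower and 1 higher, beside 20% and 16% of all features, with a median of -1.73. The higher gene was again Tcstv1 (log2 2.05, SE 0.29, adjusted p = 0.000247). MERVL and most of the called 2-cell genes were therefore lower in the RNA-seq, with Tcstv1 the exception.

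Known activators of MERVL (16 listed, 14 matched) had 0 of 12 tested members called in either direction in Lsm1_KD, with a median of 0.21, and Nelfa, chosen after its values were seen, lay just short of the fold threshold (log2 0.9996, SE 0.28, adjusted p = 0.0488). By the mean over the 12 libraries the most abundant were the homeobox genes Obox2, at 1743 and 3817 CPM in Lsm1_KD and 3519 and 3408 in Ctrl, and Obox1, at 1539 and 2420 CPM in Lsm1_KD and 2458 and 2657 in Ctrl. Their folds were -0.25 (SE 0.30) and -0.31 (SE 0.23) on the log2 scale, and in both genes the groups overlapped or nearly met. Dux, listed also under its symbol Duxf3, was matched to no feature and has no value here.

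Known silencers of MERVL were mixed. Of 26 listed, 25 could be tested in Lsm1_KD, 2 were called higher and 2 lower, beside the 5.4% and 2.75% of all features, with a median of -0.04. Hdac1, a histone deacetylase, stood at 8.84 and 6.22 CPM in Lsm1_KD and at 45.2 and 82.3 CPM in Ctrl (log2 -3.05, SE 0.40, adjusted p = 0.00212). Pias4, a SUMO ligase, stood at 46.2 and 39.7 CPM in Lsm1_KD and at 159 and 129 CPM in Ctrl (log2 -1.68, SE 0.23, adjusted p = 0.00274).

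On the higher side, Lin28a, an RNA-binding protein gene, stood at 136 and 179 CPM in Lsm1_KD and at 75.2 and 67.1 CPM in Ctrl (log2 1.22, SE 0.23, adjusted p = 0.00932). Ncl, which encodes nucleolin, stood at 1069 and 2017 CPM in Lsm1_KD and at 841 and 617 CPM in Ctrl (log2 1.16, SE 0.28, adjusted p = 0.0267). The groups did not overlap for any of these 4 silencers.

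Markers of other cells were low in the RNA-seq. Cumulus and granulosa markers summed to 11.2 to 16.8 CPM with 3 or 4 of 10 above 0, and blood markers to 0 to 8.93 CPM, the highest in Ctrl replicate 2. Sperm markers summed to 7.98 and 11.4 CPM in Lsm1_KD and to 3.15 and 3.52 CPM in Ctrl, with 2 or 3 of 8 above 0. Most of this was Prm2, at 6.04 and 9.10 CPM in Lsm1_KD and 2.15 and 1.89 in Ctrl. Prm1, Tnp1, Tnp2, Odf1 and Smcp were at 0 in all RNA-seq libraries. The 2 sperm markers that could be tested were not called, and their part in the ERV3 values was not tested.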

How the data were processed

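Zygote RNA-seq (4 libraries) and RIP-seq (8 libraries) were analysed from the values the authors deposited. Per the labels, the authors trimmed reads (Trimmomatic), checked them (FastQC) and ran Salmon on mm10 RefSeq transcripts and Repbase repeats, whereas their methods name another trimming tool and another kit. The authors deposited estimated counts and TPM for each feature, with no further scaling stated. RefSeq transcripts were matched to GRCm38 genes (37072 of 37366, 294 kept alone), and estimated counts were summed by gene and rounded, which gave 25091 genes and repeats. TPM served for levels between features and for limma on log2(TPM + 1).

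Features were tested in R 4.3.3 with edgeR 4.0.16 (quasi-likelihood) after filterByExpr (minimum count of 10) and TMM, fitted on the 4 RNA-seq libraries, the 8 RIP-seq libraries or the 8 libraries without pull-down, with Benjamini-Hochberg adjustment over all features tested. The alternatives used DESeq2 1.42.0, limma 3.58.1, library totals, factors without repeats, no filter, single transcripts, each library left out, blocks and other sets of libraries. Intervals and floors of 3 counts cover counting error only. No share over all features was worked out for groups that did not overlap. With 2 libraries against 2, such separation is common without any difference. The members and the gene lists were chosen with earlier results of these data known. Values in every library were given for MERVL, MERVL_LTR, ORR1B1 and each member called at least once, and, per gene list and in the libraries of the comparison at hand, for up to 4 genes called in Lsm1_KD over Ctrl with the smallest adjusted p, or else the 2 most abundant.

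By the study's methods a part of each lysate was kept as Input. That Input and IP of the same number come from the same lysate was assumed here, since the methods do not link the replicate numbers. The deviations of same-numbered libraries from their group means correlated at 0.132 in the FLAG arm and 0.0924 in the Ctrl arm. The siRNA was taken from the study's oligonucleotide list.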

Additional observations from a re-analysis of the deposited data

How the results depend on the processing

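Counts of ERV3 repeats called changed with the processing as follows. The share of all features called was not worked out under the alternatives, so that these counts have no background beside them. In Lsm1_KD over Ctrl, 2 were higher in the main test, 0 with single transcripts and 1 with limma, and 0 to 3 when a library was left out. In FLAG IP over FLAG Input, 14 became 0 with single transcripts and 7 with limma, and 7 to 18 without a library. In Ctrl IP over Ctrl Input, 1 became 0 with library totals, single transcripts or limma, 6 with DESeq2, 8 with no filter, 8 with the replicate block and 9 with the 4 libraries of that arm only, and 0 to 1 without a library. In FLAG over Ctrl IP/Input, 0 became 10 without FLAG IP replicate 2, the range being 0 to 10. In Ctrl RNA-seq over Ctrl Input, 1 lower became 2 with library totals, limma or both RNA-seq groups over both inputs, where 1 was also higher, and 1 to 2 without a library. No member was called in FLAG Input over Ctrl Input under any alternative run. The cause was not tested.

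Of 915 values of named members under alternatives, 796 kept direction and side of the threshold, 52 lost the call, 41 gained it and 26 changed sign, none of the last being called. The arm ratio of MERVL turned to 0.41 with library totals, 0.043 with single transcripts, 0.80 with limma and 0.17 with the replicate block, and ran from -0.75 to 1.06 without a library, being above 0 without Ctrl Input replicate 2 (0.29), Ctrl IP replicate 1 (0.42), FLAG Input replicate 2 (1.06) or FLAG IP replicate 2 (0.07). That of RLTR19A_MM turned to -0.32 with the block and ran from -1.73 to 0.97 without a library. Without a library the arm ratio ran from -0.26 to 1.27 for MERVL_LTR, from -0.19 to 2.65 for ORR1C2, from -2.06 to 2.37 for RLTR19C_MM and from -0.85 to 1.87 for RLTR35_MM. Likewise ORR1C2 ran from -0.12 to 0.85 in Lsm1_KD over Ctrl, ORR1C1 from -0.12 to 0.49 and RLTR19B_MM from -0.18 to 1.02 in FLAG Input over Ctrl Input, and RMER15 from -0.024 to 0.59 and MERVL_LTR from -0.96 to 0.27 in Ctrl RNA-seq over Ctrl Input. In the last comparison limma put MERVL_LTR at 0.041, and both RNA-seq groups over both inputs put RLTR19A_MM at -2.54.

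The numbers of Lsm1_KD and Ctrl share no stated source, and their deviations correlated at -0.11. The replicate block left 2 members called and the crossed pairing, added after the data were seen, 3. FLAG IP directly over Ctrl IP was added likewise. The lysate block left 14 called in the FLAG arm and 0 in the ratio of arms.

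With 2 libraries per group, an error of 1 or more on the log2 scale, as for MERVL in the RIP-seq, leaves differences of several fold undetectable. Members under about 1 CPM rest on a few reads, and 15 of 21 could not be tested in the RNA-seq.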
